A study of Mus musculus with 4 samples.

Results

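Inflammasomes are cytosolic complexes that turn the detection of microbial or damage signals into protease activity. Their genes were followed here in mouse neutrophils. The 7 genes chosen by symbol were the sensors Nlrp3, Nlrc4 and Aim2, the adaptor Pycard, the caspases Casp1 and Casp4, and the pore-forming protein gene Gsdmd. Every probe set whose annotated symbol equals one of these names was taken, which gave 8 of the 45101 probe sets on the array. These covered 6 of the 7 genes, and 5 of those genes had 1 probe set. No probe set analysed here carried the symbol Nlrc4, so the sensor that responds with NAIP proteins to bacterial flagellin and secretion systems has no value below.

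The cells came from 8-week-old C57BL/6 mice, either miR-125a-/- (knockout, KO) or miR-125a+/+ (wild type, WT), and were taken from bone marrow with a magnetic bead neutrophil kit. The 4 groups were KO cells given lipopolysaccharide (LPS) for 3 h, KO cells without LPS, WT cells given LPS for 3 h and WT cells without LPS. RNA from 3 experiments was pooled for each group and hybridised to 1 Affymetrix array, so differences between groups could not be tested or checked against replicates, and precision is limited by the single array per group. The isolated cells were kept in medium with serum. The labels used here give neither how the allele was made nor how long the unstimulated cells, labelled 0 h, were cultured.

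In an inflammasome, a sensor recruits the adaptor ASC, encoded by Pycard, which assembles caspase-1. Caspase-1 matures the precursors of interleukin-1 beta and interleukin-18 and cleaves gasdermin D, whose released part forms pores in the plasma membrane. In mice, the caspase encoded by Casp4 (also called Casp11) binds cytosolic LPS and cleaves gasdermin D without a separate sensor. In macrophages, signalling through Toll-like receptor 4 raises Nlrp3 and Casp4 transcripts, a step known as priming, whereas neutrophils are known for releasing interleukin-1 beta while often withstanding pyroptosis.

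The microRNA named in the genotype is shown first, since its locus defines the groups. The mature miR-125a-5p is given with its seed (bases 2 to 8) in capitals, from RefSeq on GRCm38.p6 at chr17:17830817-17830840, plus strand. The arrays hold no value for it that was used here.
miR-125a-5p: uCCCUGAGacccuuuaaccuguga

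The 250 bases before an annotated start site are shown for Nlrp3, the only one of the 6 genes that differed 2-fold after LPS, and for Casp4, whose product is the LPS-binding caspase. They lie at chr11:59541319-59541568 and chr9:5308599-5308848 of GRCm38.p6, both on the plus strand, and come from RefSeq. Capitals mark matches to an NF-kB-type motif, GGG, any 2 bases and TTTCC, on either strand.
Nlrp3: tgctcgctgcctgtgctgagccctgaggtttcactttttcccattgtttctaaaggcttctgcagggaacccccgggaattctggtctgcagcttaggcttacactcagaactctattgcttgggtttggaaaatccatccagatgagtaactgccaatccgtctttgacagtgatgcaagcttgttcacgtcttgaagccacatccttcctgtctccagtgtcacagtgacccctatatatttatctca
Casp4: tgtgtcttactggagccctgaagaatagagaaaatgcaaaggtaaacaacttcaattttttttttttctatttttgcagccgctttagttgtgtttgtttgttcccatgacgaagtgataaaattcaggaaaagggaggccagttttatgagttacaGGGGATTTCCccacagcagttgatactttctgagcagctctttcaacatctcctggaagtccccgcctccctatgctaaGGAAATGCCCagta
The Casp4 window held 2 matches, at bases 93 to 84 and 14 to 5 before the start, and they do not overlap. A match to this motif was present in 1.41% of the 32851 promoter windows of the same length. The Nlrp3 window held 0 matches to it, and 0 to an interferon response element core (GAAA, any 2 bases and GAAA, in 2.98% of windows), a gamma-activated site (TTCNNNGAA, 7.02%) or an AP-1 site (TGANTCA, 6.75%). A second annotated start of Nlrp3 gave 0 matches too. The windows of Pycard, Casp1, Aim2 and Nlrc4 held none of the 4 motifs. These are matches of letters and say nothing of factor binding.

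Each value below is a log2 signal of 1 probe set on 1 array. Values under a floor of 6.80, the 60th percentile of all probe sets, were raised to it before differences were taken, while levels are printed as deposited. A gene was called higher or lower from a 2-fold difference, a log2 difference of 1. Of the 8 probe sets, 5 exceeded the floor on all 4 arrays, 2 (both of Pycard) on no array, and that of Aim2 on the WT arrays only. Of 14 neutrophil markers, 12 were matched and all 12 were above the floor on every array. Ly6g and Cebpe were not matched, so the presence of these markers of the labelled cell type was not read. All 4 matched T and NK cell markers lay under the floor on every array, whereas 2 of 5 matched B cell markers, Ighm and Cd79b, lay above it on every array. The summed signal of the B cell list was 22221 with LPS and 19653 without in KO cells, and 24934 with LPS and 20479 without in WT cells.

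**Figure D1:**
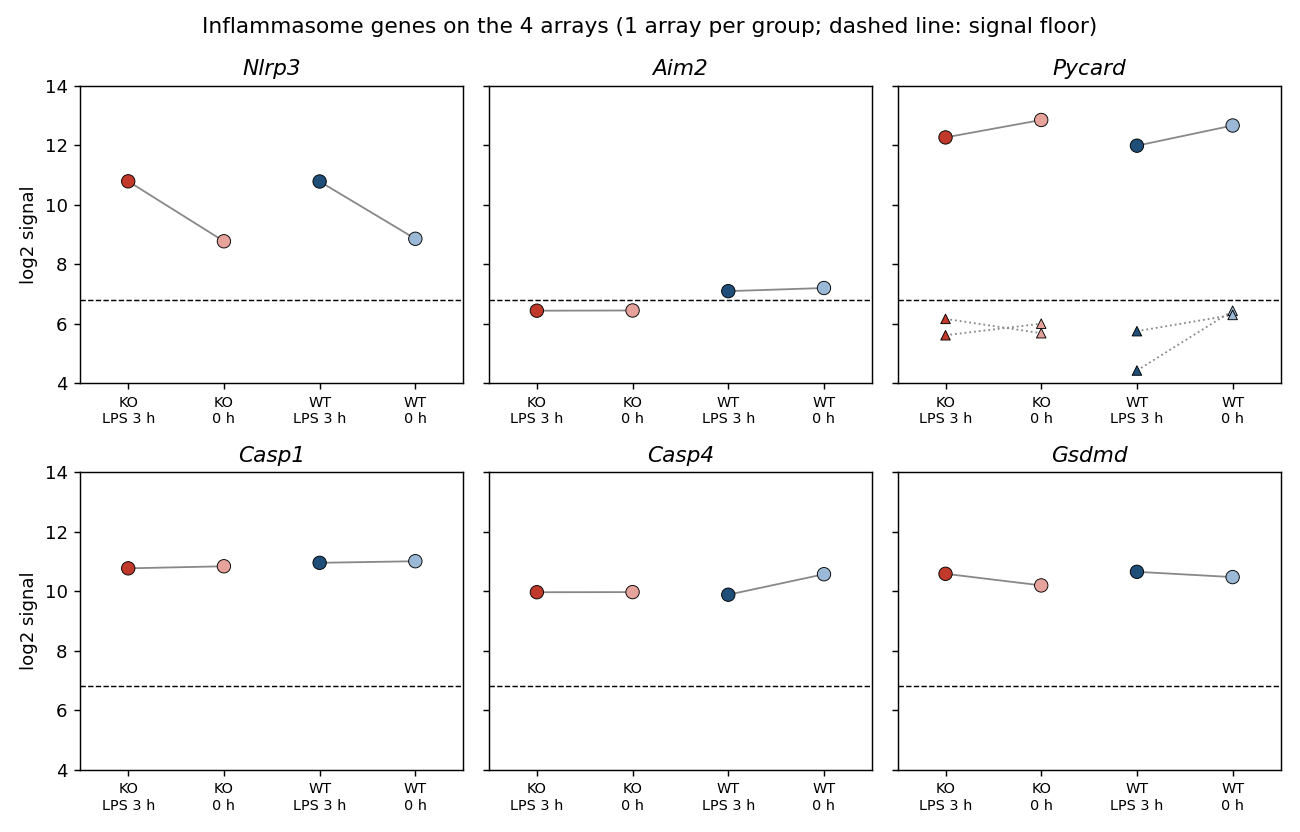
Log2 signal (vertical axis) of the 6 measured inflammasome genes on each of the 4 arrays (horizontal axis; KO arrays red, WT arrays blue, darker shades for LPS 3 h). Circles are the probe set that represents each gene, triangles the other 2 Pycard probe sets, and the dashed line is the floor of 6.80; only the Nlrp3 signal stands clearly higher after LPS, and Aim2 is above the floor only on the WT arrays.

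After LPS, Nlrp3 stood about 4 times higher in both genotypes, while the adaptor, both caspases, gasdermin D and Aim2 stayed within 2-fold. Of 5 measured genes in KO cells 1 was higher and 0 lower, with a background of 6.62% higher and 7.99% lower among 9578 genes. Of 6 measured genes in WT cells 1 was higher and 0 lower, with a background of 7.29% higher and 9.69% lower among 9507 genes. The medians over the inflammasome genes were -0.0039 in KO cells and -0.08 in WT cells, beside -0.05 and -0.03 over all measured genes.

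Nlrp3 (probe set 1425412_at, chromosome 11) encodes the sensor that reacts to potassium loss, crystals and pore-forming toxins. Its probe set read 10.79 with LPS and 8.77 without in KO cells. In WT cells it read 10.78 with LPS and 8.86 without. Both LPS arrays were higher than both unstimulated arrays, and the genotypes were nearly level at each time. The gene was 4.05-fold higher after LPS in KO cells (log2 difference 2.02) and 3.80-fold higher in WT cells (1.93). Of the measured genes, 1.87% had a larger positive difference in KO cells and 2.31% in WT cells. The 2 responses differed by 0.09, within the central 90% of all genes for that quantity (-0.60 to 0.65).

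The search for genes like Nlrp3 used the 8156 genes above the floor on all arrays, passing over other inflammasome members and uncharacterised symbols. Of the genes left, those whose 4 signals, each centred on its own mean, lay closest were Siglece, Acsl5 and Mdfic. Their root mean square differences from Nlrp3 over the 4 arrays were 0.027, 0.028 and 0.031. Siglece, an inhibitory sialic acid receptor, had LPS differences of 1.95 in KO cells and 1.95 in WT cells. Acsl5, an acyl-CoA synthetase, had 1.99 in KO cells and nearly the same in WT cells, at 13.96 with LPS and 11.96 without. Mdfic had 1.94 in KO cells and 1.92 in WT cells. With 4 values per gene many profiles lie close to each other, so this is only a description.

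Transcripts used as monocyte and macrophage markers moved in the same comparison. Of 15 such markers 13 were matched. In KO cells 5 of 8 measured markers were higher after LPS and 2 were lower. In WT cells 5 of 9 were higher and 2 were lower. Over all measured genes 6.62% were higher and 7.99% lower in KO cells, and 7.29% and 9.69% in WT cells. Adgre1, Csf1r, Vcam1, Marco and Cx3cr1 were the higher ones in both genotypes, and Ccr2 and F13a1 the lower ones. Adgre1 had 5.16 in KO cells and 4.94 in WT cells, and Csf1r had 2.36 and 2.64. Ccr2 had -3.54 in KO cells and -3.88 in WT cells, and F13a1 had -1.79 and -1.93. The summed unlogged signal of the list was 45383 with LPS and 24716 without in KO cells, and 48298 with LPS and 24464 without in WT cells. Other macrophage markers of the list, C1qa, C1qb, C1qc and Mrc1, stayed under the floor on all 4 arrays, and no marker of the list was at 0. Among 8 dendritic cell markers, 2 of 5 measured (Itgax and H2-Ab1) were higher after LPS in each genotype, and the summed signal was 2637 with LPS and 1815 without in KO cells, and 2526 with LPS and 1655 without in WT cells. The summed signal of 6 matched erythroid markers was 322 with LPS and 1785 without in KO cells, and 228 with LPS and 1033 without in WT cells. Of the 6, 1 was above the floor with LPS and 4 without in KO cells, and 0 with LPS and 3 without in WT cells. Hba-a1 and Alas2 were under it on every array. The sums with LPS are thus mostly signal at or under the floor. The part of other cells in the Nlrp3 difference was not tested. In RNA of mixed cells, fewer cells of a type and less RNA per cell cannot be told apart.

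Aim2 (probe set 1426619_at, chromosome 1) encodes a sensor of cytosolic double-stranded DNA. Its signal was 6.44 with LPS and 6.44 without in KO cells, both under the floor. In WT cells it was 7.09 with LPS and 7.20 without, both just above it. The WT difference after LPS was -0.11, and 0.27 under quantile normalization. The LPS and unstimulated values were nearly equal within each genotype, and both KO values lay under both WT values. Against the floor, KO was lower than WT by at least 1.32-fold in unstimulated cells (log2 difference -0.40). With LPS the difference against the floor was -0.30. As deposited, without the floor, the KO minus WT differences were -0.76 without LPS and -0.66 with LPS. All of these are short of 2-fold, and signals this dim scatter widely on the log scale.

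Aim2 lies on chromosome 1, where RefSeq places Ifi206, Ifi214 and Ifi213 next to it, in the run of interferon-inducible HIN-domain genes. Of that run, Ifi204, a nuclear DNA sensor, was lower in KO cells with LPS, at 7.96 against 9.36 in WT cells (KO minus WT -1.39). Unstimulated KO cells had 6.16, under the floor, against 7.36 in WT cells, a difference of -0.56 against the floor. Mndal, another gene of the run, did not follow it, with KO minus WT differences of -0.31 without LPS and 0.30 with LPS. Ifi203 exceeded the floor on the KO array with LPS only, at 6.96.

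Pycard (probe set 1417346_at, chromosome 7) encodes ASC, the adaptor that joins sensors to caspase-1. Its bright probe set read 12.26 with LPS and 12.85 without in KO cells. In WT cells it read 11.99 with LPS and 12.67 without. Both LPS arrays were lower than both unstimulated arrays, by a log2 difference of -0.59 in KO cells and -0.68 in WT cells, short of 2-fold. Of the measured genes, 19.2% had a lower difference in KO cells and 17.7% in WT cells, so values of this size were common. On the poly-A scale the Pycard differences passed 2-fold, at -1.20 in KO cells and -1.24 in WT cells. That scale moved the median of all genes by -0.56 in KO cells and -0.51 in WT cells. The KO arrays were higher than the WT arrays by 0.19 without LPS and 0.28 with LPS.

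The other 2 Pycard probe sets, 1417347_at and 1446926_at, gave values under the floor on every array. The first read 6.16 with LPS and 5.68 without in KO cells, and 4.43 with LPS and 6.44 without in WT cells. The second read 5.61 with LPS and 6.00 without in KO cells, and 5.75 with LPS and 6.30 without in WT cells. The first thus ran higher with LPS in KO cells and lower in WT cells, a split that the bright probe set did not show. With all 3 probe sets averaged, the Pycard difference after LPS was -0.16 in KO cells and -1.08 in WT cells, the last past 2-fold.

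Casp1 (probe set 1449265_at, chromosome 9) encodes the protease that matures interleukin-1 beta and interleukin-18. It read 10.77 with LPS and 10.84 without in KO cells. The WT arrays read 10.96 with LPS and 11.01 without. Across the 4 arrays it spanned 0.24, the least of the 6 genes. LPS differences were -0.07 in KO cells and -0.05 in WT cells. KO was lower than WT at both times, by a log2 difference of -0.17 without LPS and -0.19 with LPS, and 23.8% and 25.3% of measured genes had lower differences.

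Casp4 (probe set 1449591_at, chromosome 9) encodes the LPS-binding caspase, and its genotypes differed most without LPS. It read 9.97 with LPS and 9.97 without in KO cells. The WT arrays read 9.88 with LPS and 10.57 without. The unstimulated WT array was thus the high one, and the other 3 were nearly level. The LPS difference was -0.0039 in KO cells and -0.69 in WT cells. The WT difference turned to -1.25 on the poly-A scale, where the median of all genes moved by -0.51. Unstimulated KO cells were lower than WT cells by a log2 difference of -0.60, outside the central 90% of all genes (-0.48 to 0.48), and 2.78% of genes had a lower value. With LPS the KO minus WT difference was 0.08.

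The KO minus WT difference between the 2 Casp4 responses was 0.68, and 4.28% of 9865 genes had a higher one. It was not past 2-fold, and 0 of the 6 genes were past it in either direction, with a background of 1.23% higher and 0.872% lower. Of the 4 values behind it, that of the unstimulated WT array stood apart, and whether it exceeds the spread between experiments was not tested. The neighbouring gene on chromosome 9, Casp1, had a difference between responses of -0.02. Casp12, on the other side of Casp4, was under the floor on all arrays.

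Gsdmd (probe set 1428767_at, chromosome 15) encodes the protein whose cleaved part forms the pore of pyroptosis. It read 10.59 with LPS and 10.20 without in KO cells. The WT arrays read 10.65 with LPS and 10.48 without. Both LPS arrays were above both unstimulated arrays, with differences of 0.39 in KO cells and 0.18 in WT cells. These differences turned to -0.22 and -0.39 under scaling to the poly-A spike-in controls. KO was lower than WT by -0.28 without LPS and -0.07 with LPS.

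**Figure D2:**
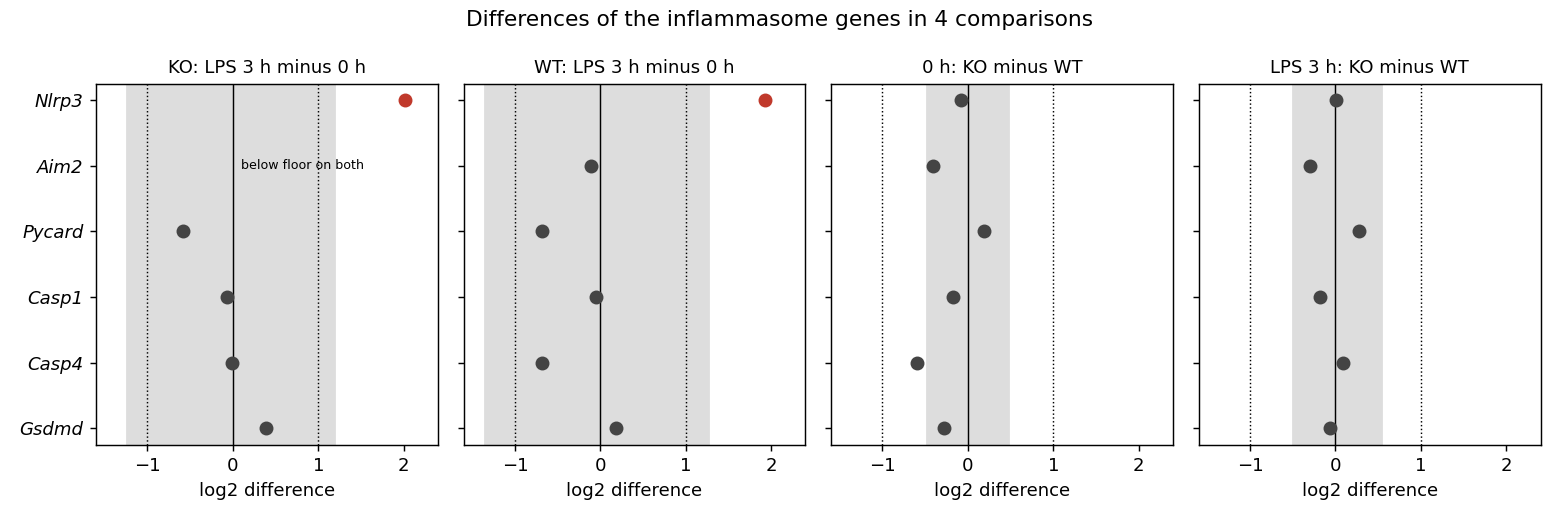
Log2 differences (horizontal axis) of the 6 genes in 4 comparisons, with grey bands for the central 90% of all measured genes and dotted lines at 2-fold; each point is a difference between 2 single arrays. Nlrp3 at 2.02 in KO and 1.93 in WT cells (red) is the only point past 2-fold, and Casp4 at -0.60 in unstimulated cells lies outside the band of the genotype comparison.

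Between the genotypes, no inflammasome gene differed 2-fold at either time. Without LPS, 0 of 6 genes were higher and 0 lower in KO cells, with a background of 0.351% higher and 0.66% lower among 9401 genes. With LPS, 0 of 6 were higher and 0 lower, with a background of 0.615% higher and 0.626% lower among 9262 genes. Differences ran from -0.60 (Casp4) to 0.19 (Pycard) without LPS, with a median of -0.23 beside 0.0043 over all genes. They ran from -0.30 (Aim2) to 0.28 (Pycard) with LPS, with a median of -0.03 beside -0.0082 over all genes. Casp1, Gsdmd and Aim2 were lower in KO cells at both times, and Pycard higher at both, all by less than 2-fold. With its 3 probe sets averaged, the Pycard difference without LPS turned to -0.29.

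Other genes of the pathway were read from 7 lists with 89 symbols, of which 77 were matched and 67 exceeded the floor on at least 1 array. Over all measured genes after LPS, 6.62% were higher and 7.99% lower in KO cells, and 7.29% and 9.69% in WT cells. On the poly-A scale, 314 of 9785 genes were higher and 2574 lower in KO cells, and 340 and 2389 of 9605 in WT cells. The list counts were not tested against these shares. Among other sensors, 3 of 12 were higher and 0 lower after LPS in KO cells (median 0.16), and 3 of 11 were higher and 3 lower in WT cells (median -0.09). Mefv, which encodes the sensor pyrin, read 12.80 with LPS and 10.09 without in KO cells. The WT arrays read 12.80 with LPS and 9.69 without. Its differences of 2.71 in KO cells and 3.10 in WT cells exceeded those of Nlrp3. Nod1, a peptidoglycan sensor that does not form a classical inflammasome, had 1.15 in KO cells and 1.09 in WT cells. Ifi204 was higher by at least 1.17 on the log2 scale in KO cells and by 1.995 in WT cells. The lower genes in WT cells were Naip5 (-1.32), Nlrp12 (-1.24) and Nlrc5 (-1.15). Nlrc5, a regulator of MHC class I genes, had 0.16 in KO cells, a difference between responses of 1.31. On the poly-A scale 1 sensor was higher and 4 lower in KO cells (median -0.29), and 2 were higher and 4 lower in WT cells (median -0.65), with Nod1 in both genotypes and Ifi204 in KO cells no longer past 2-fold. Under median scaling the WT median was 0.06, and under quantile normalization Nlrc5 was short of 2-fold in WT cells, at -0.85.

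Partners of the missing Nlrc4 were on the array. Naip5, which binds flagellin, had LPS differences of -0.67 in KO cells and -1.32 in WT cells. Naip2, which binds a secretion system rod protein, had 0.73 in KO cells and 0.63 in WT cells. Naip6, another flagellin receptor, had -0.21 in KO cells and -0.09 in WT cells. The NAIP genes are close copies of one another, so their probe sets may share signal, and their directions did not run together. P2rx7, the ATP-gated channel upstream of Nlrp3, was under the floor on every array, while the kinase Nek7, which binds the Nlrp3 protein, had -0.15 in KO cells and -0.60 in WT cells.

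Of 14 activators and licensing factors, 4 were higher and 1 lower in KO cells (median 0.49), and 5 were higher and 0 lower in WT cells (median 0.35). Gbp2, a GTPase that opens bacterial membranes, had 2.10 in KO cells and 1.28 in WT cells, and its second probe set had 1.44 in KO cells and 1.34 in WT cells. Cd14, which hands LPS to its receptor complex, had 1.52 in KO cells and 1.32 in WT cells. Syk, a tyrosine kinase that acts on ASC, had 1.42 in KO cells and 1.37 in WT cells, while its other 3 probe sets ranged from -0.15 to 1.19 in KO cells and from 0.35 to 1.37 in WT cells. Ly96, the LPS receptor subunit MD-2, had 1.19 in KO cells and 1.001 in WT cells. Irf1, an interferon regulatory factor, had 0.70 in KO cells and 1.07 in WT cells. Txnip, which binds thioredoxin, had -1.11 in KO cells and -0.79 in WT cells. A second Txnip probe set had -0.77 in KO cells and -1.002 in WT cells, so the genotype past 2-fold depended on the probe set. On the poly-A scale 1 gene of the list, Gbp2, was higher and 2 lower in KO cells (median -0.12), and 0 were higher and 3 lower in WT cells (median -0.22), so that Cd14, Syk and Ly96 in both genotypes and Gbp2 and Irf1 in WT cells were no longer past 2-fold. Txnip in KO cells was just short of 2-fold under median scaling.

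Of 12 inhibitors, 5 were higher and 0 lower in each genotype (medians 0.50 in KO cells and 0.42 in WT cells). Il10, an anti-inflammatory cytokine, was under the floor without LPS and had bounds of 3.48 in KO cells and 3.32 in WT cells. Tnfaip3, a ubiquitin editor that restrains Nlrp3 priming, had 2.84 in KO cells and 2.99 in WT cells. Nfe2l2, the transcription factor of the antioxidant response, had 2.05 in KO cells and 2.04 in WT cells, but a dimmer second probe set ran the other way, at -1.77 in KO cells and -2.20 in WT cells. Cflar, an inhibitor of caspase-8, had 1.99 in KO cells and 1.65 in WT cells, while 1 of its other 4 probe sets ran the other way, at -1.37 in KO cells and -1.64 in WT cells. Birc3, a ubiquitin ligase, had 1.83 in KO cells and 1.78 in WT cells. Serpinb1a, an inhibitor of neutrophil proteases and caspase-1, had -0.03 in KO cells and -0.05 in WT cells. Scaled to poly-A, 5 of the list were higher and 3 lower in each genotype, and the medians turned to -0.11 in KO cells and -0.14 in WT cells.

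Among 5 other measured caspases, 1 was higher and 1 lower in KO cells (median 0.06), and 0 were higher and 1 lower in WT cells (median -0.09). Casp6, an executioner-type caspase, was the lower one in both, at -2.18 in KO cells and at most -2.91 in WT cells, where the LPS value was under the floor. Casp14, a caspase of the skin barrier, was higher by at least 1.10 in KO cells and had -0.28 in WT cells. Without LPS it was lower in KO than in WT cells by a bound of -1.49. Casp8, which can cleave gasdermin D, had 0.74 in KO cells and 0.77 in WT cells. In a list of gasdermins, proteases and rupture genes, which also held Acod1, 7 genes were measured. Of these, 2 (Ninj1 and Acod1) were higher and 0 lower in each genotype (medians 0.49 in KO cells and 0.66 in WT cells). On the poly-A scale 0 caspases were higher and 2 lower in KO cells (median -0.55), with Casp14 at 0.60, and 0 were higher and 1 lower in WT cells (median -0.66), a median that was 0.12 under quantile normalization. On the same poly-A scale 2 of the gasdermin list were higher and 1, Elane, lower in each genotype (medians -0.12 in KO cells and 0.10 in WT cells). Ninj1, which ruptures the membrane after pores have formed, had 2.53 in KO cells and 2.68 in WT cells, and its other 3 probe sets ranged from 1.16 to 2.64 in KO cells and from 0.23 to 3.36 in WT cells. Acod1, the itaconate enzyme, had 3.36 in KO cells and 3.56 in WT cells. Elane, the elastase that can also cleave gasdermin D in neutrophils, had -0.67 in KO cells and -0.58 in WT cells.

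The cytokines that caspase-1 acts on, with their relatives and antagonists, were among the genes with the larger differences. In KO cells 4 of 6 were higher and 2 lower (median 2.56), and in WT cells 4 of 6 were higher and 1 lower (median 2.03). Il1b had 3.07 in KO cells and 2.62 in WT cells, and Il18 had 2.07 in KO cells and 1.44 in WT cells. Il1a, listed below the floor without LPS, had bounds of 4.47 in KO cells and 4.95 in WT cells. The antagonist Il1rn had 3.05 in KO cells and 3.00 in WT cells, and the decoy receptor Il1r2 had -3.05 in KO cells and -2.95 in WT cells. Il18bp, which binds interleukin-18, was lower by a bound of -1.50 in KO cells and had -0.86 in WT cells. Scaled to poly-A, 4 were higher and 2 lower in KO cells, and 3 higher and 2 lower in WT cells, where Il18 (0.88) was no longer past 2-fold and Il18bp (-1.43) was. Of 11 ESCRT-III genes, which repair gasdermin pores, 0 were higher and 0 lower in either genotype (medians 0.32 in KO cells and 0.35 in WT cells, and below 0 on the poly-A scale, at -0.29 in KO cells and -0.21 in WT cells).

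No gene of the 7 lists differed 2-fold between the genotypes in the same direction at both times. Casp14 was lower in KO cells without LPS only (a bound of -1.49), and Ifi204 with LPS only (-1.39). Such calls were rare among all measured genes, at 0.351% higher and 0.66% lower without LPS, and 0.615% and 0.626% with LPS. The share of all genes called at both times was not computed, so the absence is not a result about these lists.

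**Figure D3:**
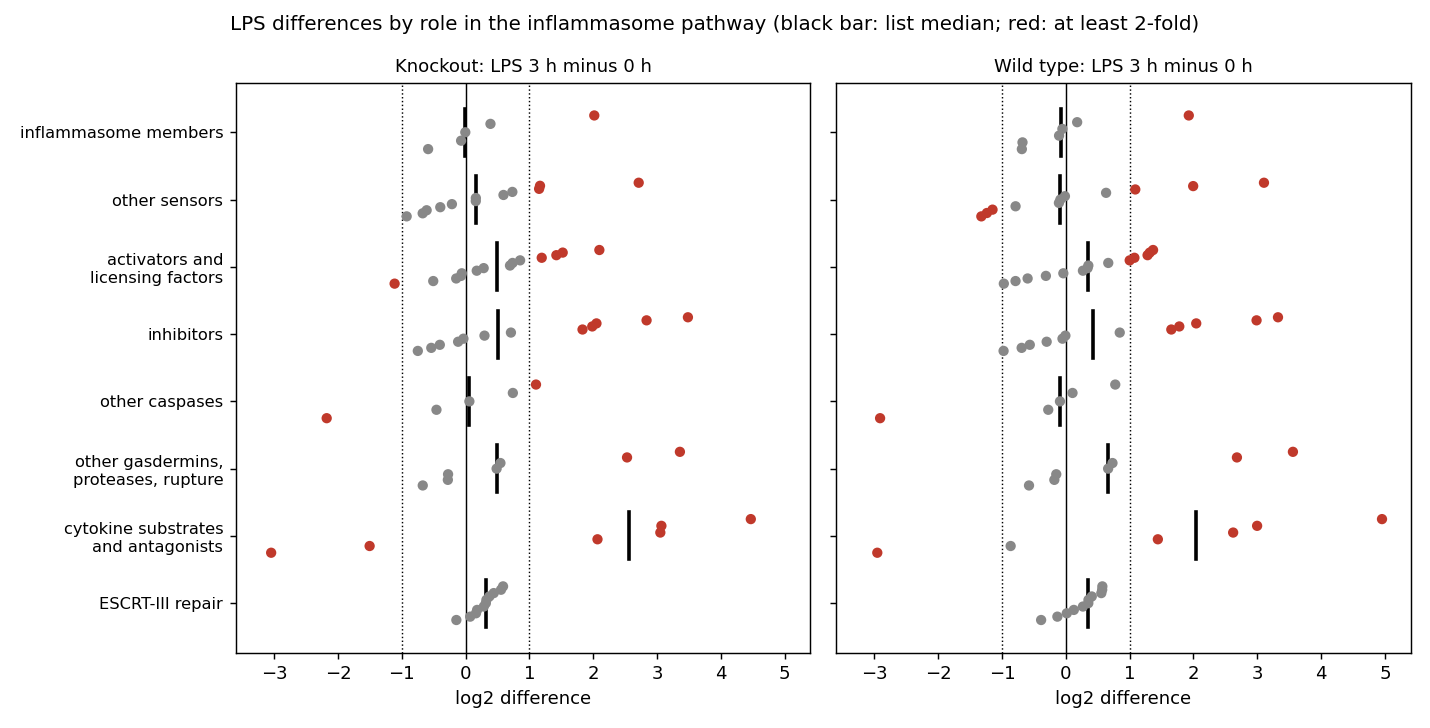
Log2 LPS differences (horizontal axis) of the measured genes in each role list (vertical axis), KO cells in the left panel and WT cells in the right; each point is 1 gene, red from 2-fold, and black bars are list medians. The cytokine list has the highest medians (2.56 in KO and 2.03 in WT cells), and the inflammasome genes sit near 0 apart from Nlrp3.

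The mean log2 signal of 24 poly-A spike-in probe sets was 9.25 with LPS and 8.64 without in KO cells, and 9.29 with LPS and 8.72 without in WT cells. The balance of all genes depended on how the arrays were scaled. As deposited, 634 genes were higher and 765 lower after LPS in KO cells, and 693 and 921 in WT cells. Scaled on the poly-A spike-in controls the counts were 314 higher and 2574 lower in KO cells, and 340 and 2389 in WT cells, with the median of all genes moved by -0.56 and -0.51. Quantile normalization gave 835 higher and 707 lower in WT cells, and median scaling 856 and 730. Under each of these 3 scalings Nlrp3 remained at least 2-fold higher, between 1.41 and 2.13 on the log2 scale in KO cells and between 1.36 and 2.07 in WT cells.

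**Figure D4:**
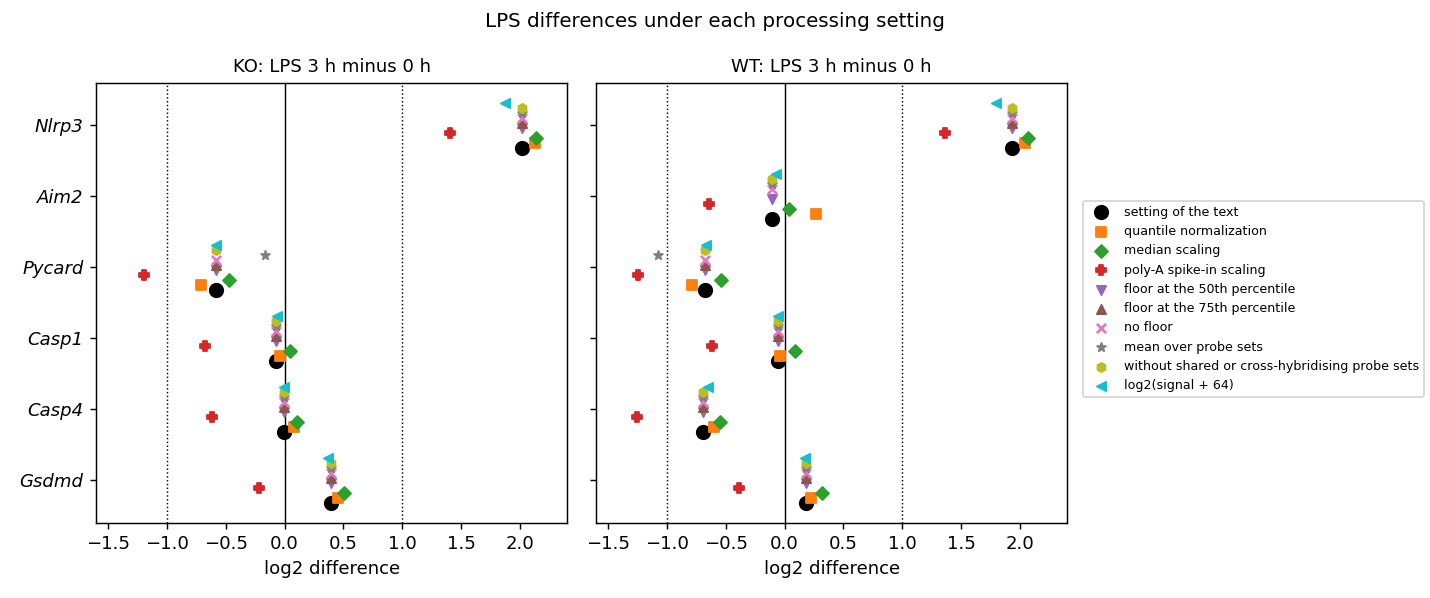
Log2 LPS differences (horizontal axis) of the 6 genes under the setting of the text (black circles) and 9 other settings (coloured symbols), KO cells left and WT cells right. Nlrp3 lies past the dotted 2-fold line under all settings shown, Pycard reaches it on the low side under poly-A scaling in both genotypes and Casp4 in WT cells, and Aim2 has no KO value because it is under the floor on both KO arrays. The floor and probe-set settings could not move Nlrp3.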

How the data were processed

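The authors deposited 1 table of log2 signals from 4 arrays, each of pooled RNA from 3 experiments; the submitters' processing notes name MAS5. Unlogged, the mean after trimming 2% from both ends was 500.003 or 500.004 on every array, so the arrays had been brought to a common level. MAS5 corrects background on single arrays, so dim probe sets scatter widely.

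Symbols came from the platform annotation supplied with the series, where 34958 probe sets had 1 symbol, 932 had several and 9211 were not listed. For each of 18193 genes the brightest probe set by mean log2 signal was used. Signals below log2 6.80 were raised to it. Genes entered a comparison when 1 or both of its arrays lay above that floor, and differences were called from 2-fold. With 1 array per group no p-value was computed.

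Named were the 7 inflammasome genes, the 3 list genes with the largest called LPS differences in each of 7 lists, other list members chosen for their role after their values were seen, and the 3 profiles closest to any inflammasome gene above the floor on all arrays and spanning 2-fold. Other inflammasome genes and uncharacterised symbols were passed over in choosing those profiles. The genes and lists were chosen with earlier results of these data known. The calling step was tested on simulated data with low noise and changes larger than 2-fold, in genes well above the floor. That test does not show how the rule fares on dim genes, on smaller changes or with the spread between real arrays. Python 3.11.15, numpy 2.4.6 and pandas 2.3.3 were used.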

Additional observations from a re-analysis of the deposited data

Results flagged for a closer look

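Response signs were compared for the inflammasome genes and the list genes with the largest called LPS differences. Of these, Casp14, a caspase of the skin barrier, had opposite signs in the 2 genotypes. The log2 difference was 1.10 in KO cells, where the unstimulated value was under the floor and the value is a bound, and -0.28 in WT cells. Scaled to poly-A, the KO value was 0.60, short of 2-fold. Each response is a difference between 2 single arrays, and the difference between them was not tested. The probe set is one marked as cross-hybridising, and a second Casp14 probe set lay under the floor on all 4 arrays. Nlrc5, outside the compared genes, also had opposite signs, at 0.16 in KO cells and -1.15 in WT cells. It was above the floor on all 4 arrays, and its responses differed by 1.31. Under quantile normalization its WT value was -0.85. Other list genes outside the compared ones were not screened.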

How the results depend on the processing

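Of 90 recomputed counts of inflammasome genes past 2-fold, 87 stayed within 1.5 times the reported count. On the poly-A scale 1 of 5 genes was lower after LPS in KO cells (Pycard, -1.20) and 2 of 6 in WT cells (Pycard, -1.24, and Casp4, -1.25), against 0 in each as reported. All genes moved down on that scale, with 2574 of 9785 lower in KO cells and 2389 of 9605 in WT cells. In the mean over probe sets 1 of 6 was lower in WT cells (Pycard, -1.08), beside 833 of 8369 genes. The counts were not tested against these shares. Of 256 recomputed differences 252 kept their side of 2-fold, and the other 4 are those just given; no called difference changed sign. Nlrp3 stayed past 2-fold in both genotypes under all 9 alternatives. Its 1 probe set lay above every floor used, so the floor and probe-set settings could not change its value. The same holds for Casp1, Casp4 and Gsdmd, so many of the recomputed values were bound to stay the same. Only the scalings and the log2(signal + 64) setting could move Nlrp3. Signs of smaller differences changed under some alternatives, among them Casp1 and Aim2 under median scaling in WT cells (0.09 and 0.04). Over all genes, the genotype calls moved most with the floor: without one, 95 were higher and 125 lower unstimulated, and 166 and 139 with LPS, against 33, 62, 57 and 58 as reported; at the 75th percentile they were 11, 17, 16 and 24. The Casp4 difference between responses ranged from 0.64 to 0.68. The cause of these changes was not tested. Aim2 lay too near the floor to give a direction after LPS. No paired analysis was possible because the labels carry no replicate numbers and each group holds 1 array.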
